A study of Rattus norvegicus with 16 samples.

Results

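Respiratory complex I is the mitochondrial enzyme that oxidises NADH, passes the electrons to ubiquinone and pumps protons across the inner membrane. It is the known target of the biguanides, the drug class of metformin and phenformin. The genes described here are the nuclear genes that encode its subunits. They were taken from a list of 35 gene symbols and matched to the array's annotation by symbol, and 34 of the 35 had a probe set named by 1 symbol, among 22093 genes measured in all. The member without one was Ndufa13, and its level was not analysed here. Probe sets named for it carry pseudogene symbols (Ndufa13-ps1, Ndufa13-ps4, and Ndufa13-ps together with Yjefn3).

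The samples are liver pieces of male RccHan Wistar rats that were 7 to 8 weeks old, profiled on a 1-colour Affymetrix whole-transcript array. Rats of the control groups received untreated food and rats of the treated groups received food with 3000 ppm phenformin, for 3 or 14 days. Each of the 4 groups has 4 arrays. No other genotype, diet or agent distinguishes the groups. The labels state 5 rats per group, with 2 or 3 sharing a cage, and the titles give each array as a biological replicate. Phenformin was eaten with the food, and neither the intake per animal nor the cage of each array is given in the sources used here.

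A value here is the log2 of the deposited intensity, and a change is the phenformin group's mean minus the control group's mean on that scale. The deposited values span a wide range (array medians of 30.89 to 34.46 and a highest log2 value of 19.93), so a fold is a ratio of deposited values and may not equal a ratio of RNA amounts. The 34 members stood between the array's median gene (5.86) and the top of the scale on all 16 arrays: their means over the arrays ran from 6.89 (Ndufb8) to 13.28 (Ndufa9). Hepatocyte markers, of which 9 of 10 were measured, had list means of 17.78 to 17.85 in the 4 groups, and skeletal muscle markers 5.72 to 6.14. In whole liver pieces, fewer cells of a type and less RNA per cell cannot be told apart. The array's precision is limited by 4 arrays per group.

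In the assembled enzyme, 3 working parts can be told apart. The N module faces the matrix and takes electrons from NADH through a flavin and a chain of iron-sulfur clusters, the Q module hands them to ubiquinone, and the membrane arm, with a proximal and a distal part, carries the proton channels. A small set of core subunits does the chemistry, a further set of core subunits is encoded in mitochondrial DNA, and the many accessory subunits stabilise the structure. The roles named below are known from the bovine, mouse and human enzymes. The grouping used here places 10 measured members in the N module, 5 in the Q module, 8 in the proximal and 11 in the distal membrane arm.

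Genes of the respiratory chain are known to carry binding sequences of the factors NRF1, the ETS factor GABP and YY1 near their starts. Promoter sequences of RefSeq (GRCr8, 250 bases before to 50 bases after the annotated start) were matched to 32 of the 34 measured members by symbol, and those of Ndufa8 and Ndufb9 were not matched. The YY1 letters AAGATGGC, searched on both strands, were in 8 of these 32 promoters (25%) and in 3.44% of all 27457 promoters of the same length. In all 8 they lay on the strand of the gene and just after the start, between base 255 and base 277 of the window counted from its 5′ end, where base 251 is the first after the start. The 30 bases around each match are shown to let the shared position be read, with the match in capitals. The letters contain ATG, and whether this is the gene's own start codon was not examined.
Ndufa2: ctttgctagcaAAGATGGCggccgcaagcc
Ndufa3: tgtccaagaccAAGATGGCtgctagtaagt
Ndufa6: gcttccttagcAAGATGGCggccgcggcca
Ndufa9: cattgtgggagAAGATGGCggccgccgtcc
Ndufb8: cggagaaggtgAAGATGGCggcgtcccggg
Ndufs4: ttgcccacaggAAGATGGCggcggtctcaa
Ndufs6: gggtcgtcggcAAGATGGCggcggcgctga
Ndufs7: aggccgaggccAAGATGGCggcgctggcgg

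These 8 members belong to the N module (Ndufa2, Ndufa6, Ndufs4 and Ndufs6), the Q module (Ndufa9 and Ndufs7), the proximal arm (Ndufa3) and the distal arm (Ndufb8). The NRF1 letters CGCANGCGC were also in 8 of the 32 (25%, against 6.34% of all promoters). The densest case was Ndufa11, where overlapping matches on both strands fall into a single run, shown in capitals.
Ndufa11: gcgctgtGCGCATGCGCATGCGCacaggcc

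The ETS letters CCGGAAG were in 6 of 32 (18.8%, against 9.22%), the ERR letters CAAGGTCA in 1 (3.12%, against 1.48%) and the SP1 letters GGGCGG in 15 (46.9%, against 34.9%). These shares are descriptions of letters in a fixed window. The members' promoters also held more CG dinucleotides (median 20, against 7 over all promoters) and a higher GC content (median 56.8%, against 52.3%), and the part of base composition in the shares was not tested. Promoters of 34 nuclear genes of complexes II to V held the NRF1 letters in 38.2%, the ETS letters in 38.2% and the YY1 letters in 20.6% of cases.

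Phenformin at day 3 left no member past the threshold, an adjusted p under 0.05 over all genes in limma's moderated test: 0 of 34 were called, where 1.15% of all genes were. At day 14 it was again 0 of 34, where 0.321% of all genes were called. At an unadjusted p under 0.05, 3 of 34 members passed at day 3 (10.6% of all genes did) and 3 of 34 at day 14 (11.2% of all genes). The 4 treated and the 4 control arrays did not overlap for 1 member at day 3, Ndufa2 (7.68% of all genes), and for 1 at day 14, Ndufa9 (5.22% of all genes), both with the treated arrays higher.

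The changes were small in both directions. At day 3 they ran from -0.31 (Ndufa8) to 0.33 (Ndufa2) with a median of 0.034, beside 0.0066 over all genes. At day 14 they ran from -0.42 (Ndufa8) to 0.25 (Ndufb6) with a median of 0.036, beside 0.00026 over all genes. Positive changes were found for 23 and 24 of 34 members, beside 52% and 50% of all genes. The members do not vary independently between arrays, so these counts of signs carry fewer separate observations than 34.

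When the effects of both days were averaged, which uses all 16 arrays, 2 of 34 members passed, where 3.16% of all genes did. Ndufa2 rose and Ndufa8 fell. Both calls lie close to the threshold and most of the fits that leave out 1 array lose them, as given beside each gene below. The difference between the effects (day 14 minus day 3) passed for 0 of 34 members (0.00453% of all genes), and the members' median difference was -0.0083.

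**Figure D1:**
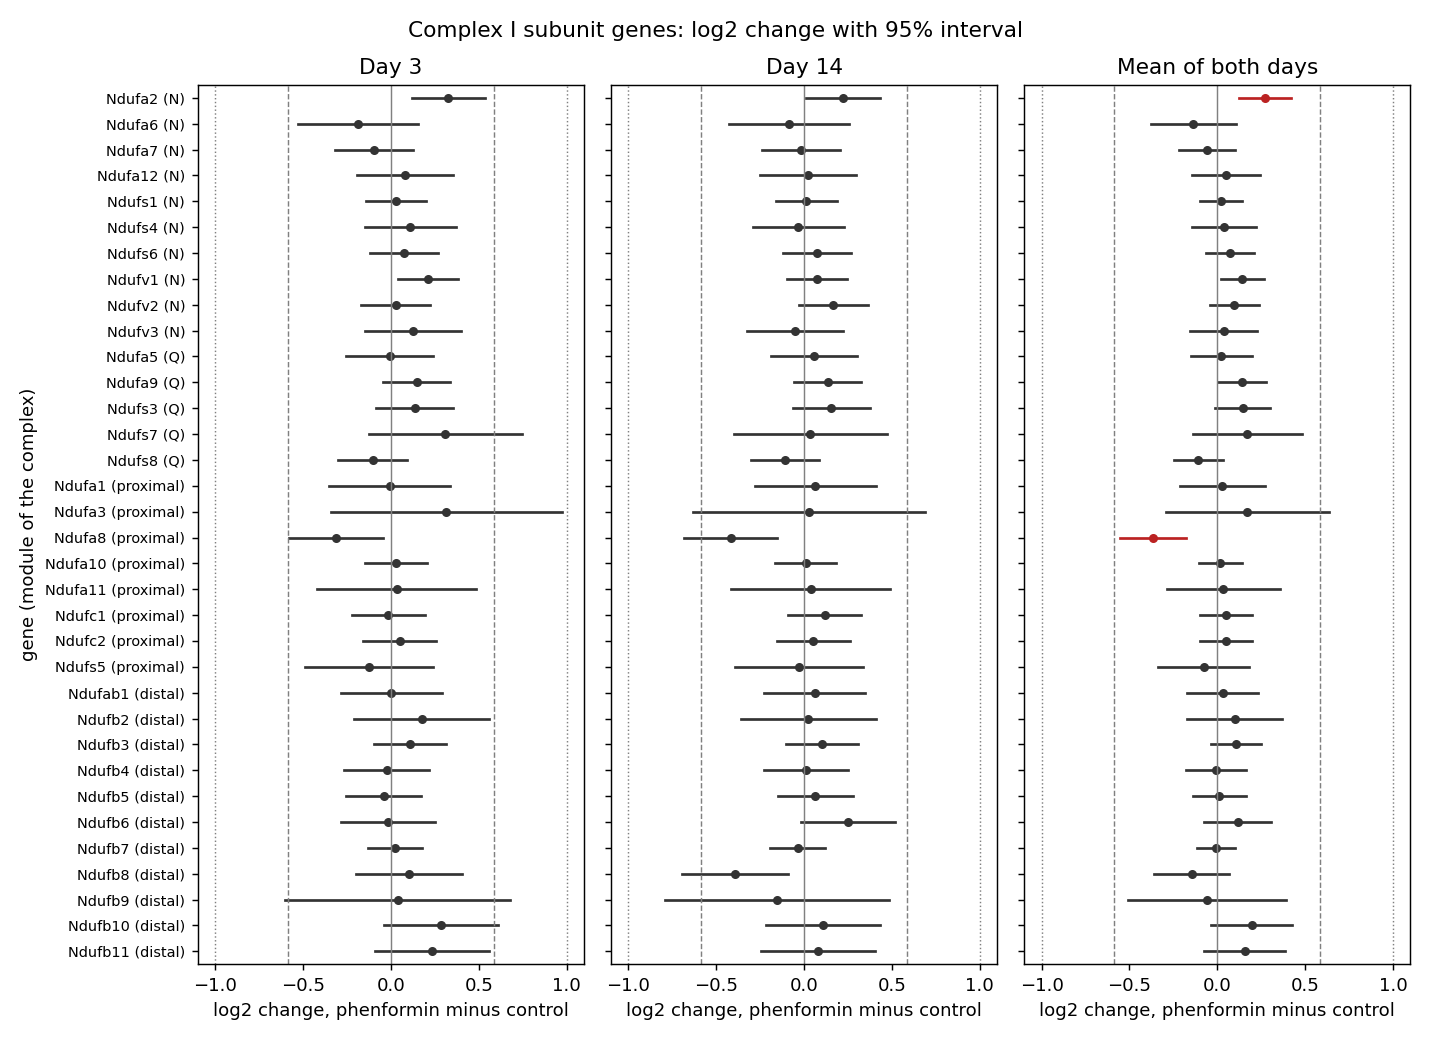
Log2 change (phenformin minus control, horizontal axis, log2 units) of the 34 measured subunit genes at day 3, at day 14 and averaged over both days, each with its 95% interval from the limma fit; genes are ordered by module, dashed lines mark 1.5-fold and dotted lines 2-fold, and red marks an adjusted p under 0.05. Most intervals cross 0. Those that stay between the dashed lines, whether or not they cross 0, number 30, 30 and 33 of 34. The red genes are Ndufa2 and Ndufa8 in the averaged comparison.

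The size of change that these data exclude was read from the 95% intervals. At day 3 the interval of 30 of 34 members lay wholly within 1.5-fold in both directions (80.3% of all genes), and that of all 34 within 2-fold. At day 14 the counts were 30 of 34 (80.5% of all genes) and again 34. For the average of both days 33 of 34 lay within 1.5-fold (91.2% of all genes), all but Ndufa3, and 34 within 2-fold.

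The 4 members whose day-3 interval reached beyond 1.5-fold were Ndufa3, Ndufb9, Ndufb10 and Ndufs7. At day 14 they were Ndufa3, Ndufa8, Ndufb8 and Ndufb9. The largest rise compatible with the 95% interval of any member was 1.96-fold at day 3 and 1.61-fold at day 14, both for Ndufa3, and the largest fall was 1.52-fold at day 3 and 1.73-fold at day 14, both for Ndufb9.

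Per member, the fold beyond which a change in either direction was excluded had a median of 1.28 at day 3, 1.26 at day 14 and 1.19 for the average of both days. The tightest limits were 1.13-fold at day 3 (Ndufb7), 1.14-fold at day 14 (Ndufa10) and 1.08-fold for the average (Ndufb7). With intervals widened to hold jointly over the 34 members (Bonferroni), 20 members at day 3, 20 at day 14 and 27 for the average stayed within 1.5-fold, and 31, 32 and 33 within 2-fold. To pass the threshold that applied over all genes, the median member would have needed a change of 1.43-fold at day 3 and 1.51-fold at day 14, so smaller changes of a typical member were not detectable as calls with 4 arrays per group.

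Ndufv1 encodes the subunit that binds NADH and the flavin, where electrons enter the enzyme. Its control livers of day 3 stood at 11.65, 11.58, 11.75 and 11.65 and its treated livers at 11.64, 11.97, 11.93 and 11.95. Treated replicates 2, 3 and 4 lay above all controls and replicate 1 lay among them, so the groups overlapped. Control values of day 14 read 11.74, 11.68, 11.73 and 11.57 and the treated livers 11.67, 11.78, 11.81 and 11.75, where again replicates 2, 3 and 4 lay above all controls and replicate 1 lay among them. The change was 0.21 at day 3 (95% interval 0.04 to 0.38; adjusted p = 0.322) and 0.07 at day 14 (-0.10 to 0.24), which bounds a rise at 1.30-fold and 1.18-fold. The difference of -0.14 between the days had an interval of -0.38 to 0.10.

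Ndufv2, an iron-sulfur subunit next to Ndufv1, stood at 12.79, 12.85, 12.98 and 12.65 in control and at 12.83, 12.90, 12.69 and 12.96 in treated livers of day 3. The groups covered nearly the same range. At day 14 the controls were 12.67, 12.77, 12.79 and 12.69 and the treated livers 12.73, 13.07, 12.81 and 12.98, of which replicate 1 lay among the controls. The changes were 0.03 (-0.17 to 0.22) and 0.17 (-0.03 to 0.36; adjusted p = 0.55).

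Ndufs1, the largest subunit of the N module, holds several iron-sulfur clusters. It read 13.06, 13.06, 12.97 and 12.89 in control and 12.92, 13.06, 13.02 and 13.10 in treated livers of day 3. Day-14 values were 12.87, 12.88, 12.88 and 13.13 in controls and 12.82, 13.00, 12.94 and 13.05 in treated livers. All 4 groups overlapped, with control replicate 4 of day 14 above the other 15 arrays. Its changes of 0.03 (-0.14 to 0.20) and 0.01 (-0.16 to 0.19) exclude a change beyond 1.15-fold at day 3 and 1.14-fold at day 14.

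Ndufa2 is an accessory subunit of the N module with a thioredoxin-like fold. Its control livers of day 3 stood at 7.59, 7.58, 7.85 and 7.72 and its treated livers at 7.89, 8.06, 7.88 and 8.21. All treated arrays lay above all controls, with a gap of a few hundredths between the nearest. Control values of day 14 read 7.89, 7.74, 7.64 and 7.64 and the treated livers 7.89, 8.13, 7.82 and 7.95, and control replicate 1 lay within the treated range. The change was 0.33 at day 3 (0.12 to 0.54; adjusted p = 0.169) and 0.22 at day 14 (0.01 to 0.43; adjusted p = 0.419), neither past the threshold.

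Averaged over both days Ndufa2 rose by 0.27 (0.13 to 0.42), or 1.21-fold (1.09 to 1.34), with an adjusted p of 0.0446 in limma. Of the 16 fits that each left out 1 array, 12 lost the call, with adjusted p between 0.0388 and 0.0945 and a change between 0.24 and 0.30 throughout. It was also lost with array weights (adjusted p = 0.0506) and with the titles' replicate number as a block in the model (adjusted p = 0.0753). Its promoter (GRCr8, chr18:28631835-28632134, minus strand) is shown whole because Ndufa2 is the called member with a matched window. Capitals mark an ETS match, which reads as CTTCCGG because it lies on the opposite strand, and the YY1 match after the start.
Ndufa2 promoter: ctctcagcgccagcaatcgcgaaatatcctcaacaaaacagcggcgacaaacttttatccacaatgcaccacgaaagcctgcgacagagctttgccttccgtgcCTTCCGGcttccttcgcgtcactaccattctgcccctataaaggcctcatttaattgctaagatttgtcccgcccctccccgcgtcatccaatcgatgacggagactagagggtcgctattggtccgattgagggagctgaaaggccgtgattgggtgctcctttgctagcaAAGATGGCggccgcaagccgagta

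The remaining N-module members did not pass in any comparison. They are Ndufv3, Ndufs4 (an accessory subunit that holds the N module in place and whose loss causes Leigh syndrome in humans), the zinc-binding Ndufs6, the LYR-motif protein Ndufa6, Ndufa7 and Ndufa12. Their changes averaged over both days ran from -0.14 (Ndufa6, -0.38 to 0.11) to 0.07 (Ndufs6, -0.06 to 0.21). All 10 N-module intervals lay within 1.5-fold at both days, and the module's median change was 0.075 at day 3 and 0.017 at day 14.

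In the Q module, Ndufs7 carries the iron-sulfur cluster that passes electrons to ubiquinone. Its control livers of day 3 stood at 7.18, 6.75, 7.55 and 6.85 and its treated livers at 7.58, 7.58, 7.44 and 6.96. At day 14 the controls read 7.61, 7.14, 7.51 and 6.71 and the treated livers 7.35, 7.30, 7.38 and 7.08. Treated replicates 1 and 2 of day 3 lay just above all controls of that day, and the other treated arrays lay among them. Controls of day 14 enclosed all treated values of that day. The controls of both days spread over most of a log2 unit. The changes of 0.31 (-0.13 to 0.75) and 0.04 (-0.40 to 0.47) therefore allow a rise of up to 1.68-fold at day 3.

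Ndufs8, which also carries iron-sulfur clusters on the path to ubiquinone, read 7.52, 7.35, 7.80 and 7.55 in control and 7.47, 7.50, 7.46 and 7.37 in treated livers of day 3. By day 14 it read 7.59, 7.53, 7.43 and 7.29 in controls and 7.40, 7.36, 7.28 and 7.35 in treated livers. Treated values lay within or just below the control range at both days. The changes were -0.11 (-0.30 to 0.09) and -0.11 (-0.30 to 0.08), which exclude a fall beyond 1.23-fold at either day and a rise beyond 1.06-fold.

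Ndufs3, a core subunit without a cofactor, read 10.19, 10.01, 10.34 and 9.96 in control and 10.17, 10.37, 10.22 and 10.28 in treated livers of day 3. Its day-14 values were 10.13, 9.98, 10.22 and 9.78 in controls and 10.16, 10.24, 10.09 and 10.25 in treated livers. The lowest values were control arrays at both days, and the ranges overlapped. The changes were 0.13 (-0.08 to 0.35) and 0.15 (-0.07 to 0.37).

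Ndufa9, an accessory subunit that binds a nucleotide cofactor beside the ubiquinone site, was the member whose arrays did not overlap at day 14. Its controls there read 13.29, 13.10, 13.27 and 13.07 and its treated livers 13.30, 13.30, 13.29 and 13.38, a gap smaller than the rounding of these values for the nearest pair. The change was 0.14 at day 14 (-0.06 to 0.33; adjusted p = 0.639) and 0.15 at day 3 (-0.04 to 0.34; adjusted p = 0.637). This gene was singled out after its values were seen. The other Q-module member, Ndufa5, had a change of 0.02 over both days (-0.15 to 0.20).

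**Figure D2:**
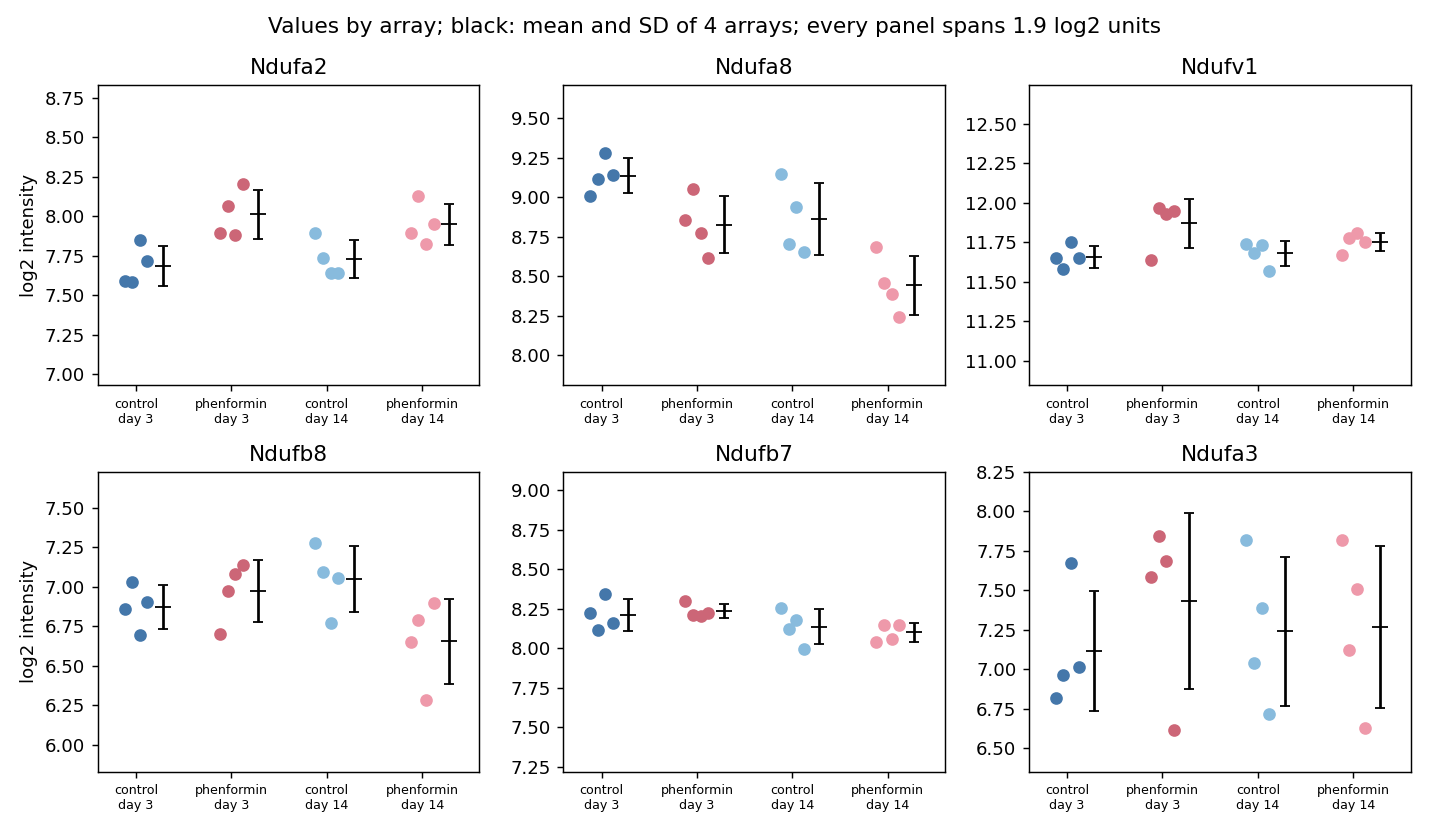
Log2 intensity of 6 subunit genes on each array (vertical axis, log2 units), by group (horizontal axis), with replicates 1 to 4 from left to right and the mean and SD of 4 arrays in black; every panel spans the same height in log2 units. Treated arrays of Ndufa2 lie above all controls at day 3, Ndufa8 reads lower in treated than in control livers with overlapping arrays, Ndufb7 has the narrowest intervals and Ndufa3 among the widest.

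Ndufa8 belongs to the proximal membrane arm and is a cysteine-rich subunit on the side of the intermembrane space, held by disulfide bonds. Its control livers of day 3 stood at 9.01, 9.12, 9.28 and 9.14 and its treated livers at 8.86, 9.05, 8.77 and 8.62. Treated replicates 1, 3 and 4 lay below all controls and replicate 2 lay among them. Control values of day 14 read 9.15, 8.71, 8.94 and 8.65 and the treated livers 8.69, 8.46, 8.39 and 8.24, with replicate 1 of the treated livers just above the lowest control. The change was -0.31 at day 3 (-0.58 to -0.05; adjusted p = 0.361) and -0.42 at day 14 (-0.69 to -0.15; adjusted p = 0.181).

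Averaged over both days Ndufa8 fell by 0.37 on the log2 scale (95% interval -0.55 to -0.18), which is 1.29-fold (1.13 to 1.47), with an adjusted p of 0.0372 in limma. The call was lost in 11 of the 16 fits that left out 1 array, where the change ran from -0.41 to -0.32 and the adjusted p from 0.0236 to 0.0741, and with quantile normalization (adjusted p = 0.0558). Its control livers also read lower at day 14 than at day 3, by -0.28 (-0.54 to -0.01; adjusted p = 0.675), which is of similar size to the drug's change at day 3. Treated livers of day 3 (mean 8.83) and control livers of day 14 (8.86) thus stood at nearly the same level.

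Ndufa3, a small membrane subunit, had the widest intervals of all members. It read 6.82, 6.96, 7.67 and 7.01 in control and 7.58, 7.84, 7.69 and 6.61 in treated livers of day 3. At the later time it read 7.82, 7.04, 7.39 and 6.71 in controls and 7.81, 7.12, 7.51 and 6.63 in treated livers. At both days a treated array was the lowest of its 8, and the groups overlapped over most of their range. The changes were 0.31 (-0.34 to 0.97) and 0.03 (-0.63 to 0.69).

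Of the other proximal members, Ndufa1 (a small subunit encoded on the X chromosome) had a difference of 0.03 over both days (-0.21 to 0.27), the nucleoside-kinase-like Ndufa10 one of 0.02 (-0.11 to 0.14) and the cysteine-rich Ndufs5 one of -0.08 (-0.33 to 0.18), none past the threshold. Ndufa11 stood at 0.03 (-0.29 to 0.35), Ndufc1 at 0.05 (-0.10 to 0.20) and Ndufc2 at 0.05 (-0.10 to 0.20). Ndufa1 was the only member with 2 probe sets. On the one used, the day-3 means were 10.04 ± 0.21 in control and 10.03 ± 0.32 in treated livers (SD, n = 4). On the other they were 8.02 ± 0.19 and 7.83 ± 0.30, so neither set separated the groups beyond their spread.

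In the distal arm, Ndufb8, a membrane-spanning subunit often used to follow complex I by immunoblot, had the smallest p for a difference between the days. Its control livers of day 3 stood at 6.86, 7.03, 6.69 and 6.90 and its treated livers at 6.70, 6.97, 7.08 and 7.14, with largely overlapping ranges. At day 14 the controls read 7.28, 7.09, 6.77 and 7.05 and the treated livers 6.65, 6.79, 6.28 and 6.90. Treated replicates 1 and 3 of day 14 lay below all controls and the other two lay among them. The change was 0.10 at day 3 (-0.20 to 0.40) and -0.39 at day 14 (-0.69 to -0.09; adjusted p = 0.282). The difference of -0.50 (-0.92 to -0.07) had an unadjusted p of 0.025 and an adjusted p of 0.874 in limma, so a change of the effect with time was not established.

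Ndufb6, another membrane subunit of the distal arm, read 11.44, 11.01, 11.58 and 11.34 in control and 11.27, 11.52, 11.11 and 11.39 in treated livers of day 3. After 14 days it read 11.42, 11.20, 11.25 and 11.03 in controls and 11.61, 11.47, 11.28 and 11.53 in treated livers, where 3 of 4 treated arrays lay above all controls. The changes were -0.02 (-0.29 to 0.25) and 0.25 (-0.02 to 0.52; adjusted p = 0.492). Their difference of 0.27 had an interval of -0.11 to 0.65.

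Ndufb9, an LYR-motif protein that binds the mitochondrial acyl carrier protein, was measured loosely. It read 12.71, 12.34, 13.31 and 12.54 in control and 12.96, 13.17, 12.72 and 12.20 in treated livers of day 3. By day 14 it read 13.30, 12.82, 13.13 and 12.04 in controls and 13.03, 12.71, 12.94 and 11.99 in treated livers. Each group spanned nearly a log2 unit or more and all groups overlapped. The changes were 0.04 (-0.60 to 0.68) and -0.15 (-0.79 to 0.49).

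Ndufb7, a cysteine-rich subunit of the intermembrane-space face like Ndufa8, was measured most tightly. It read 8.23, 8.11, 8.34 and 8.16 in control and 8.30, 8.21, 8.20 and 8.22 in treated livers of day 3. Its day-14 values were 8.25, 8.12, 8.18 and 7.99 in controls and 8.04, 8.15, 8.06 and 8.15 in treated livers. Treated values fell inside the control range at both days. The changes were 0.02 (-0.13 to 0.18) and -0.04 (-0.19 to 0.12).

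The other distal members did not pass in any comparison. Ndufab1, the mitochondrial acyl carrier protein itself, stood at 0.03 over both days (-0.17 to 0.23), and the cysteine-rich Ndufb10 stood at 0.20 (-0.03 to 0.42; adjusted p = 0.408). Ndufb11, encoded on the X chromosome, stood at 0.16 (-0.07 to 0.39), and Ndufb2, Ndufb3, Ndufb4 and Ndufb5 lay between -0.01 and 0.11. The distal arm's median change was 0.037 at day 3 and 0.060 at day 14.

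Control livers of day 14 did not differ from those of day 3 for any member past the threshold (0 of 34, where 0.403% of all genes were called). The members' median change between these controls was -0.044, and 31 of 34 intervals lay within 1.5-fold. The means compared at each day are those of that day's arrays, while the spread behind every interval and p is pooled over all 4 groups.

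The spread between arrays of 1 group was shared by many members. Mean log2 levels of the 34 members on the arrays, replicates 1 to 4, were 9.55, 9.45, 9.79 and 9.51 in control livers and 9.56, 9.73, 9.63 and 9.62 in treated livers of day 3. They were 9.70, 9.55, 9.59 and 9.36 in control livers and 9.57, 9.64, 9.50 and 9.56 in treated livers of day 14. The treated arrays lay within the control range at both days. Control livers spread more (SD 0.15 and 0.14) than treated livers (SD 0.068 and 0.058), and this difference in spread was not tested.

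A pair of control arrays stood farthest from the rest. On replicate 3 of day 3, 32 of 34 members lay above their own mean over the 16 arrays, and on replicate 4 of day 14 only 4 of 34 did. The median deviation of the members was 0.19 and -0.19 on these arrays, that of 35 genes of complexes II to V was 0.14 and -0.14, and that of all genes was 0.0040 and 0.017. Without the first array the members' median change at day 3 was 0.092 in place of 0.034, and without the second that at day 14 was -0.0042 in place of 0.036. Without control replicate 4 of day 3 the day-3 median was 0.0077, and without control replicate 1 of day 14 the day-14 median was 0.099. No member was called at either day in any of these fits.

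**Figure D3:**
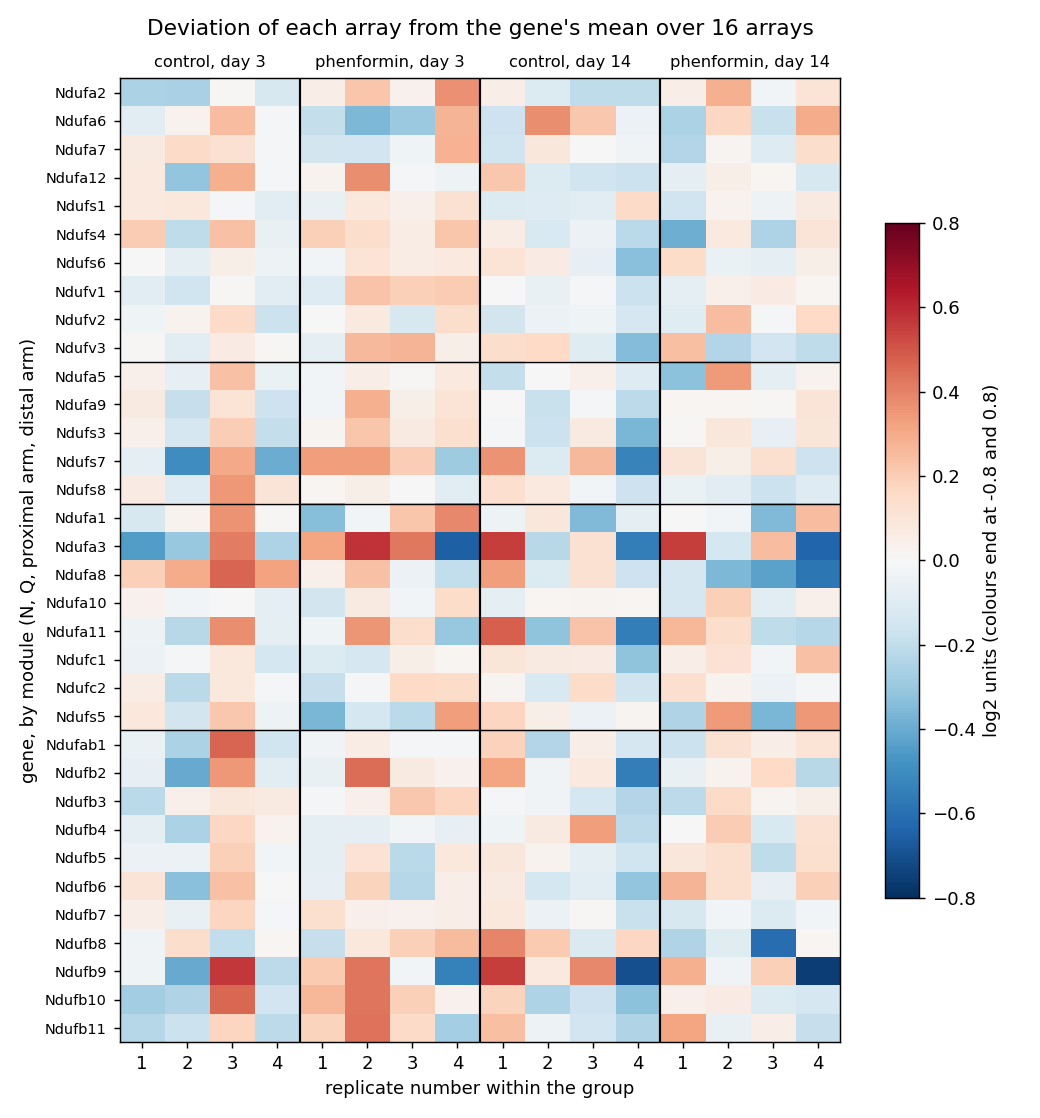
Deviation of each array (columns, replicates 1 to 4 of the 4 groups) from the mean of that gene over 16 arrays, in log2 units by colour, for the 34 measured subunit genes (rows, by module). Control replicate 3 of day 3 is red in nearly every row (32 of 34 above the mean) and control replicate 4 of day 14 is blue in most rows (4 of 34 above the mean).

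After removal of the group means, the correlation between pairs of members over the 16 arrays averaged 0.31, beside 0.011 for pairs among all genes and 0.31 among the nuclear genes of complexes II to V. These points share the same arrays, so the value is a description. It was 0.52 within the Q module and 0.38 within the distal arm. The closest to the rest was Ndufs3 (mean correlation of 0.50 with the other members). Ndufs1 was the member with a negative mean (-0.14), and the next lowest were Ndufa7 (0.048) and Ndufb8 (0.064).

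**Figure D4:**
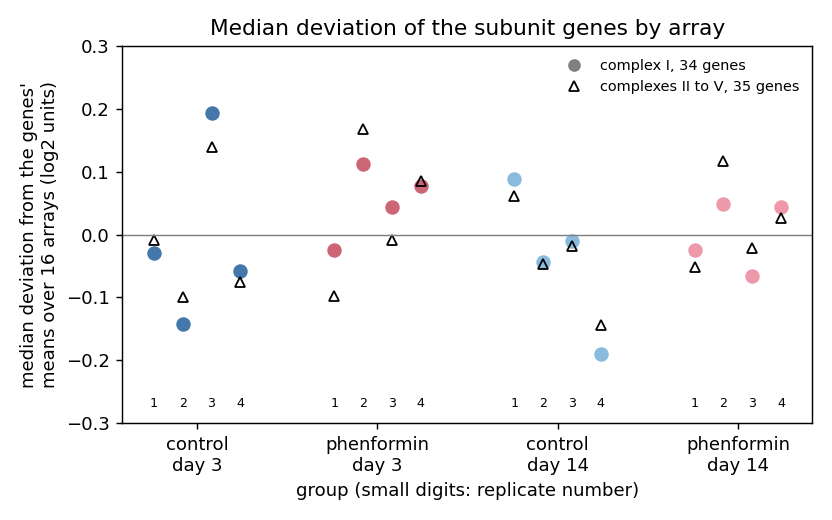
Median deviation from the genes' means over 16 arrays (vertical axis, log2 units) on each array, by group (horizontal axis), for the 34 complex I genes (filled circles) and 35 nuclear genes of complexes II to V (open triangles). The complex I values run from -0.19 (control replicate 4 of day 14) to 0.19 (control replicate 3 of day 3), and the treated arrays lie between these extremes.

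Other genes around the enzyme were counted from lists chosen in the same way as the members. Of 20 assembly factors, which build complex I and leave it, 18 were measured and 0 were called in any of the drug comparisons. Of 40 nuclear genes of complexes II to V, 35 were measured and 0 were called, with median changes of 0.065 at day 3 and 0.063 at day 14. Over all genes, 1.15% were called at day 3, 0.321% at day 14 and 3.16% in the average. A count of 0 in lists of this size therefore does not set them apart. None of the 7 mitochondrially encoded complex I subunits had a probe set named by 1 symbol, so they were not analysed here.

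Among 10 other enzymes that reduce ubiquinone or oxidise mitochondrial NADH, 1 rose in the average of both days (3.16% of all genes were called in it) and 0 were called at either day. It was Nqo1, a cytosolic quinone reductase, which went from 10.00 ± 0.36 to 10.92 ± 0.62 at day 3 and from 9.92 ± 0.24 to 10.88 ± 0.57 at day 14, or 1.92-fold on average (1.40 to 2.64; adjusted p = 0.0276). Against the same share, 1 of 12 regulators of respiratory genes rose in the average, Gabpb1, a subunit of the ETS factor GABP (1.29-fold, 1.12 to 1.49; adjusted p = 0.0492), and Ppargc1a, a coactivator of mitochondrial genes, stood at 1.41-fold (0.961 to 2.07; adjusted p = 0.378). Likewise, 1 of 14 mitochondrial proteases and import proteins fell in the average, Clpx, the unfoldase of the matrix protease ClpXP that in mouse and human cells removes N-module subunits from complex I (1.26-fold lower, 1.13 to 1.41; adjusted p = 0.0236).

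Some markers of other cell types were called with the drug, at day 3 or in the average of both days. Of 8 markers of stellate cells and fibroblasts, 5 were lower with phenformin (Col1a1, Col1a2, Col3a1, Dcn and Lum) at day 3, where 1.15% of all genes were called, and the list mean stood at 8.98 to 9.18 on control and 8.39 to 8.56 on treated arrays. At day 14, 0 of 8 were called, with list means of 8.61 to 8.72 and 8.57 to 8.87. Stellate markers also read lower in control livers of day 14 than of day 3, with 0 of 8 changes above 0. Of these 2 were called (Col1a1 and Col3a1), where 0.403% of all genes were. Hepatocyte list means were 17.76 to 17.81 on control and 17.78 to 17.88 on treated arrays of day 3, with 0 of 9 members called. Their single changes there ran from -0.41 to 0.50, with 4 of 9 at an unadjusted p under 0.05 in limma (10.6% of all genes). Some stood near the highest log2 value of 19.93, such as Alb (19.90 in control livers of day 3). Whether changes are read in full at that level was not tested. Of 6 markers of sinusoidal endothelium, 1 was called lower at day 3 (Stab2) and 0 were called at day 14. The list was mixed at day 3, with 2 of 6 changes above 0 (Pecam1 and Clec4g, neither called). In the average of both days, the comparison in which Ndufa2 and Ndufa8 were called, 3.16% of all genes were called. There 4 of 8 stellate markers were called lower (Col1a1, Col1a2, Col3a1 and Lum), with 2 of 8 changes above 0. Of 9 hepatocyte markers 1 was called higher (Cyp2e1), with 4 of 9 changes above 0 and a median of -0.0022. Of 5 bile duct markers 1 was called higher (Epcam), the only one with a change above 0, and the list's median was -0.080. Markers of Kupffer cells and macrophages (8), lymphocytes (6) and erythroid cells (3 measured) had 0 called in any of the drug comparisons. Changes of Kupffer markers were above 0 for 8 of 8 at day 3 (median 0.34) and 6 of 8 at day 14 (median 0.038). Erythroid changes were above 0 for 0 of 3 at both days (medians -0.29 and -0.55). At day 14 these 3 had an unadjusted p under 0.05 in limma, as had 11.2% of all genes. For lymphocytes 4 of 6 and 3 of 6 were above 0. The part of cell composition in the subunit values was not tested.

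Shared sequence limits the identity of some values. The RefSeq table lists pseudogenes or like-named copies for 17 of the 34 measured members, up to 11 for Ndufb4, and Ndufa2 has 4. The array holds separate probe sets for some like-named copies, among them Ndufa10l1, Ndufb4l1, Ndufb4l3, Ndufs6-ps1, Ndufa3-ps3, Ndufab1-ps2 and Ndufv3-ps1. By mean over the arrays, Ndufa10l1 (12.50) stood above Ndufa10 (11.02), and Ndufb4l3 (10.02) above Ndufb4 (7.61). Ndufa3-ps3 (7.34) stood just above Ndufa3 (7.26). Ndufb4l1 (7.49), Ndufs6-ps1 (8.98), Ndufab1-ps2 (6.49) and Ndufv3-ps1 (9.41) stood below the member they are named for. Probe sequences were not compared, so signal of a copy in a member's probe set cannot be told apart. For Ndufa8, Ndufv1, Ndufs3, Ndufs7, Ndufs8, Ndufb7 and Ndufb8 the table lists no such copy.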

How the data were processed

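Gene expression was measured in 16 rat livers (4 groups of 4 arrays). The deposited intensity values are 1 per probe set and array on a linear scale, made by the authors with RMA per the submitters' processing notes. Which program ran it, in which version, and the probe sets' genome build were not found in the sources used here. Values were converted to log2 without a pseudocount or filter. Of 68842 probe sets, 23446 carried 1 gene symbol, 505 several and 44891 none in the array's annotation table. For 1182 genes with several one-symbol probe sets, the one with the highest mean over the 16 arrays was used. This left 22093 genes.

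A model of 4 group means was fitted in limma (version 3.58.1, R 4.3.3) over the 16 arrays, leaving 12 residual degrees of freedom (15.15 in all after moderation), and p-values were Benjamini-Hochberg adjusted over all genes. Every adjusted p in the text is from limma. A call is an adjusted p under 0.05. Intervals (95%) come from the moderated spread, taken as equal in the 4 groups. At most 6 values were equal between 2 arrays. The titles' replicates were each taken as 1 animal. If they are not, p-values measure the spread between samples that may be technical. The scripts were tested on simulated data.

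The members and all lists were chosen with earlier results of these data known. Genes given array by array are the 6 core subunits, the 3 with the smallest p at each day and for the difference, and the 2 with the widest and the 2 with the narrowest intervals. Alternatives were a filter that left out 33.3% of the genes, those with the lowest means, quantile normalization, centring of arrays, array weights, an intensity trend, other probe set rules, each day fitted alone, a replicate block and leaving out each array. Promoter sequences are those of RefSeq for GRCr8.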

Additional observations from a re-analysis of the deposited data

Results flagged for a closer look

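Within groups of 4 arrays, a single array stood far from the other 3 for some members: its gap to the nearest of them was most of the group's whole range, past the 95% critical value of Dixon's test. This was found in 13 of 140 groups examined (the 34 members and the members' mean, each in 4 groups). For a single group, chance gives about 1 in 20. The 140 groups are not separate draws, because the members were read on the same arrays and vary together, and their mean is made from them. No share over all genes is given here, so the count does not show whether such arrays were more frequent among the members. Values are log2 intensities, and no explanation was tested.

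Control replicate 3 of day 3 stood high for Ndufb5 (11.86, others 11.62 to 11.65), Ndufb10 (10.33, others 9.60 to 9.72) and Ndufb11 (8.88, others 8.47 to 8.53). Control replicate 1 of day 3 stood low for Ndufb3 (7.99, others 8.24 to 8.29). Control replicate 4 of day 14 stood low for Ndufc1 (10.91, others 11.29 to 11.32) and high for Ndufs1 (13.13, others 12.87 to 12.89). Control replicate 1 of day 14 stood low for Ndufa10 (10.95, others 11.03 to 11.04) and high for Ndufa12 (7.60, others 7.22 to 7.28).

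Among treated livers of day 3, replicate 2 stood high for Ndufa12 (7.76, others 7.35 to 7.41) and Ndufab1 (10.78, others 10.70 to 10.71), and replicate 1 stood low for Ndufv1 (11.64, others 11.93 to 11.97). Among treated livers of day 14, replicate 4 stood high for Ndufa9 (13.38, others 13.29 to 13.30) and replicate 3 stood low for Ndufb5 (11.46, others 11.76 to 11.80). Several of these gaps were small in absolute size because the other arrays lay within a few hundredths of each other.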

How the results depend on the processing

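No member was called at day 3, at day 14, for the difference between the days or between the controls under any alternative. The calls of Ndufa2 and Ndufa8 in the average of both days were less stable: 2 members were called in the fit reported, 1 with quantile normalization (Ndufa8 lost, -0.35, adjusted p = 0.0558), 1 with array weights (Ndufa2 lost, 0.25, adjusted p = 0.0506) and 0 to 1 when single arrays were left out. The members' median change stayed within the spread between arrays of a group (SD 0.10), and with arrays left out it ran from 0.0077 to 0.092 at day 3, -0.0042 to 0.099 at day 14, -0.074 to 0.029 for the difference, 0.019 to 0.074 for the average and -0.078 to 0.024 between controls. The members within 1.5-fold numbered 25 to 30, 27 to 30, 21 to 26, 31 to 33 and 29 to 32 in the same order.

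Counts over all genes moved more. Leaving out arrays gave 102 to 277 genes at day 3, 30 to 132 at day 14, 0 to 10 for the difference, 421 to 817 for the average and 0 to 110 between controls (0 without control replicate 1 of day 3, which also gave the 102). The 30 came without treated replicate 3 of day 14. A filter that left out the 33.3% of genes with the lowest means gave 162 genes at day 14 and 0 for the difference, which also tests fewer genes. Array weights gave 405 at day 3, 2 for the difference and 149 between controls, and fitting day 14 alone gave 23.

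Signs of values near 0 reversed in 4 cases: Ndufb6 at day 3 (0.0038) and Ndufb7 for the average (0.011) with arrays centred on their median, and Ndufs7 (-0.0090) and Ndufa3 (-0.054) at day 14 with array weights. With arrays left out, signs reversed for 12 values: at day 3 Ndufs1 (-0.0070 to 0.064), Ndufv2 (-0.028 to 0.081), Ndufb6 (-0.13 to 0.059), Ndufb9 (-0.099 to 0.23) and Ndufb7 (-0.0093 to 0.067); at day 14 Ndufs1 (-0.020 to 0.077), Ndufs7 (-0.14 to 0.16), Ndufa3 (-0.15 to 0.24), Ndufb9 (-0.41 to 0.073) and Ndufb7 (-0.086 to 0.00090); for the average Ndufb9 (-0.19 to 0.055) and Ndufb7 (-0.031 to 0.015). The cause was not tested.

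The titles number the replicates 1 to 4 in each group. Deviations of same-numbered arrays from their group means correlated between -0.11 and 0.18 (24 pairs, median 0.010, 7 over 0.1). Those of other pairs correlated between -0.27 and 0.18 (72 pairs, median -0.012, 10 over 0.1). The labels name no block, and what same-numbered arrays share beyond the number cannot be told from these values. With the replicate number as a block, 1 member was called in the average (Ndufa8, while Ndufa2 at 0.27 had an adjusted p of 0.0753 and was not called), 0 genes were called for the difference and 47 between controls.

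The intensity trend, the mean over probe sets and the centring changed no call of a member. Intervals assume the deposited scale, equal spread in the 4 groups and independent animals, so the excluded folds hold only under these conditions.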
